A study of Mus musculus with 6 samples.

Results

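The 7 genes described here encode receptors that natural killer (NK) cells carry on their surface, namely Klrd1, Klrk1, Ncr1, Klrb1c, Klrc1, Klre1 and Cd160. They were found by their symbols in the deposited gene list, in which all 7 of 7 are among 28048 genes. Their RNA was counted in single cells by sci-RNA-seq3, a method that labels the RNA of fixed cells with well barcodes added step by step, so that a combination of barcodes stands for a cell. Each RNA molecule carries a random tag and counts as 1 unique molecular identifier (UMI). The libraries came from C57BL/6 mice that carry a yellow fluorescent protein on both copies of Bcl11b, a transcription factor that T-cell progenitors switch on at commitment. WT mice keep the Bcl11b timing enhancer, and ΔTE mice lack it on both copies. Male and female mice aged 2 to 4 months were combined, and CD117-enriched bone marrow progenitors were pooled from 6 to 8 mice. They were differentiated on OP9-DL1 stromal cells, which present a Notch ligand. Progenitors were then sorted at 3 stages and cultured for 4 more days on OP9-DL1. The DN1 start was positive for CD44 and negative for CD25. Both DN2 starts were positive for CD44 and CD25, and the Bcl11b reporter was off in DN2a and on in DN2b. The methods of the study name IL-2, IL-7, IL-15 and stem cell factor for cultures that generate NK cells and innate lymphoid cells (ILCs). The lineage antibodies of the sort included NK1.1, the protein of Klrb1c.

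NK cells read the surface of other cells through paired sets of inhibitory and activating receptors, whose balance decides whether they kill. Klrd1 (CD94) pairs with Klrc1 (NKG2A) to form an inhibitory receptor for the nonclassical MHC molecule Qa-1. Klrk1 (NKG2D) and Ncr1 (NKp46) activate through small adaptor proteins. Klrb1c is the NK1.1 antigen by which NK cells of C57BL/6 mice are stained, and Cd160 is an immunoglobulin-family receptor that binds Tnfrsf14 and is also found on ILCs and T cells.

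Of the 7 genes, 5 lie on chromosome 6, in the NK gene complex, and 4 of these within 101 kb. In GRCm38 (GENCODE M21, matched by Ensembl identifier) these are Klre1 at chr6:129577905-129585827 on the plus strand, Klrd1 at chr6:129591782-129598775 on the plus strand, Klrk1 at chr6:129610323-129623864 on the minus strand and Klrc1 at chr6:129666015-129678973 on the minus strand. Klrb1c lies apart from them at chr6:128778485-128789215 on the minus strand. Ncr1 is at chr7:4337724-4345164 on the plus strand and Cd160 at chr3:96798763-96829351 on the minus strand. The submitters' processing notes name mm9, and the files themselves hold no coordinates, so the positions serve only to place the genes.

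Promoter windows from 250 bases before to 50 after a gene's start were taken from RefSeq (GRCm38.p6), and 9 windows matched 6 of the 7 genes, all but Klrd1. The Runx core TGTGGT, read on both strands, was in 8 of the 9 windows and in at least 1 window of each of the 6 genes, and 16.8% of all 32851 promoter windows held it. The windows of Ncr1 overlap each other, as do those of Klre1, so the same Ncr1 sites were counted in both of its windows. Runx factors act in both T-cell and NK-cell development. The letters GGTGTGA of a T-box core were in 1 window of Cd160 only (3.98% of all windows), and GGAAGT of an Ets core in windows of Cd160 and Klrb1c (23.8%). These are matches of letters, which do not show that a factor binds. The windows of Klrk1 (chr6:129623815-129624114, minus strand), Ncr1 (chr7:4337465-4337764, plus strand) and Cd160 (chr3:96829302-96829601, minus strand) are printed 5′ to 3′ with the Runx core, or its reverse ACCACA, in capitals. Klrk1 and Ncr1 are shown as the receptors with at least 20 UMIs that differed most between the genotypes from the DN2b start, and Cd160 as the one that differed least.
Klrk1: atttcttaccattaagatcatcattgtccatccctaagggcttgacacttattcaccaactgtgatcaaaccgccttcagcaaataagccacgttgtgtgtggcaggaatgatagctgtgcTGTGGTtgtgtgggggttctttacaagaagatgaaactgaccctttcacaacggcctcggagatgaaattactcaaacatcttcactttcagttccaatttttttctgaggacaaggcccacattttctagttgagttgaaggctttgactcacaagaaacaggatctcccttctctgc
Ncr1: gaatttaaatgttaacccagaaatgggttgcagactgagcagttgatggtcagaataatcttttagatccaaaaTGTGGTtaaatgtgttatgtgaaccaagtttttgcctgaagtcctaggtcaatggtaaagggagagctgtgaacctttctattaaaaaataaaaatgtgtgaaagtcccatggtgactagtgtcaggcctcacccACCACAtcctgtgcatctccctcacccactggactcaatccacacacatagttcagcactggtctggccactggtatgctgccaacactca
Cd160: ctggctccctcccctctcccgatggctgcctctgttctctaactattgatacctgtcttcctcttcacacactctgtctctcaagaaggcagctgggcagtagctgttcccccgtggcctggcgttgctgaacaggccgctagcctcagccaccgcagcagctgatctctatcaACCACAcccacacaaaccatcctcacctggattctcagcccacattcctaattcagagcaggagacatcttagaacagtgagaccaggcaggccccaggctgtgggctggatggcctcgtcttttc

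Each of the 6 conditions is 1 library, so no difference between conditions has a replicate and none was tested. The counts come from 60671 cells that had 200 or more genes, no more than 2000 UMIs and a mitochondrial share of up to 30%. A library held between 3401 and 19489 cells and between 1717136 and 9048728 UMIs in these cells, with a median of 386 to 485 UMIs per cell, and no barcode was shared between libraries. Reverse transcription of each library took place in 3 wells, and these wells divide 1 culture and do not replicate it. Levels are given in CPM, the UMIs of a gene over all counted UMIs of the same cells on the customary CPM scale, with exact 95% intervals that cover counting error only. The WT DN2a library stood apart, with a median of 13.3% mitochondrial UMIs per cell against 20.9% to 23.9% in the others. Bcl11b, whose enhancer was deleted, was lower in ΔTE from each start, at 235 and 89.4 CPM from DN1, 535 and 256 from DN2a and 856 and 540 from DN2b for WT and ΔTE.

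The 7 receptors gave 3853 UMIs in all, and Cd160 gave 3355 of them, in 2962 cells. Klrd1 gave 195 UMIs, Klrk1 161, Ncr1 91, Klrc1 30, Klrb1c 17 and Klre1 4. The 6 receptors other than Cd160 thus had 498 UMIs in 404 cells, of which 394 UMIs were in ΔTE and 104 in WT. Because Cd160 set most of the summed count (87.1%), it is described apart from the other 6.

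The 6 receptors were higher in ΔTE than in WT cultures from the 2 DN2 starts. Their summed level was 4.87 CPM in WT and 28.8 CPM in ΔTE from the DN2a start, 5.92-fold higher (4.24 to 8.43). From the DN2b start it was 10.3 CPM in WT and 91.5 CPM in ΔTE, 8.92-fold higher (5.94 to 13.9). From the DN1 start it was 5.34 CPM (32 UMIs) and 9.33 CPM (55 UMIs), 1.75-fold higher (1.11 to 2.79). In the wells, the ΔTE values lay above all WT values from DN2a (26.5 to 33.2 against 3.51 to 6.10 CPM) and from DN2b (79.7 to 98.2 against 6.08 to 14.1 CPM). From DN1 the wells overlapped (5.68 to 11.7 against 3.63 to 7.02 CPM). The difference between starts was not tested. On the log2 scale the ratios were 0.80 (0.15 to 1.48) from DN1, 2.57 (2.08 to 3.08) from DN2a, whose WT library stood apart in its mitochondrial share, and 3.16 (2.57 to 3.79) from DN2b. With a mitochondrial limit of 20% they were 1.58 (0.36 to 2.96) from DN1, 2.93 (2.39 to 3.50) from DN2a and 2.32 (1.38 to 3.33) from DN2b, where the DN1 and DN2b values rest on 8 and 22 and on 14 and 34 UMIs and their intervals overlap. With no mitochondrial limit they were 0.89 (0.28 to 1.51), 2.21 (1.74 to 2.71) and 3.05 (2.54 to 3.60).

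Single receptors were read against all genes with at least 20 UMIs over both libraries of a start, whose median on the log2 scale, ΔTE over WT, was −0.00 from DN1, −0.15 from DN2a and −0.02 from DN2b. From the DN1 start, 3 receptors had that many UMIs (Klrd1, Klrk1 and Cd160) and 0 were at least 2-fold higher or lower in ΔTE, where 0.830% of all such genes were higher and 1.70% lower. From the DN2a start, 3 of 4 (Klrd1, Klrk1 and Ncr1, not Cd160) were at least 2-fold higher and 0 lower, where 1.10% of all genes were higher and 4.00% lower. From the DN2b start all 4 of 4 were at least 2-fold higher and 0 lower, where 1.74% of genes were higher and 3.64% lower. With a mitochondrial limit of 20% this was 1 receptor, and without cells that held an Il2rb UMI it was 3, with Cd160 at 1.98-fold. Every ΔTE well lay above every WT well for 4 of 4 from DN2a, where this held for 2.90% of all genes, and for 4 of 4 from DN2b, where it held for 7.71%. From DN1 this held for 0 of 3, where it held for 8.25% of all genes. Klrk1 and Ncr1 from both DN2 starts and Klrd1 from DN2b reached 20 UMIs only through ΔTE, the group in which they were high, so these counts are no support for a difference and do not cover all 7 receptors. Klrd1 from DN2a and Cd160 from every start had over 20 UMIs in WT alone.

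**Figure D1:**
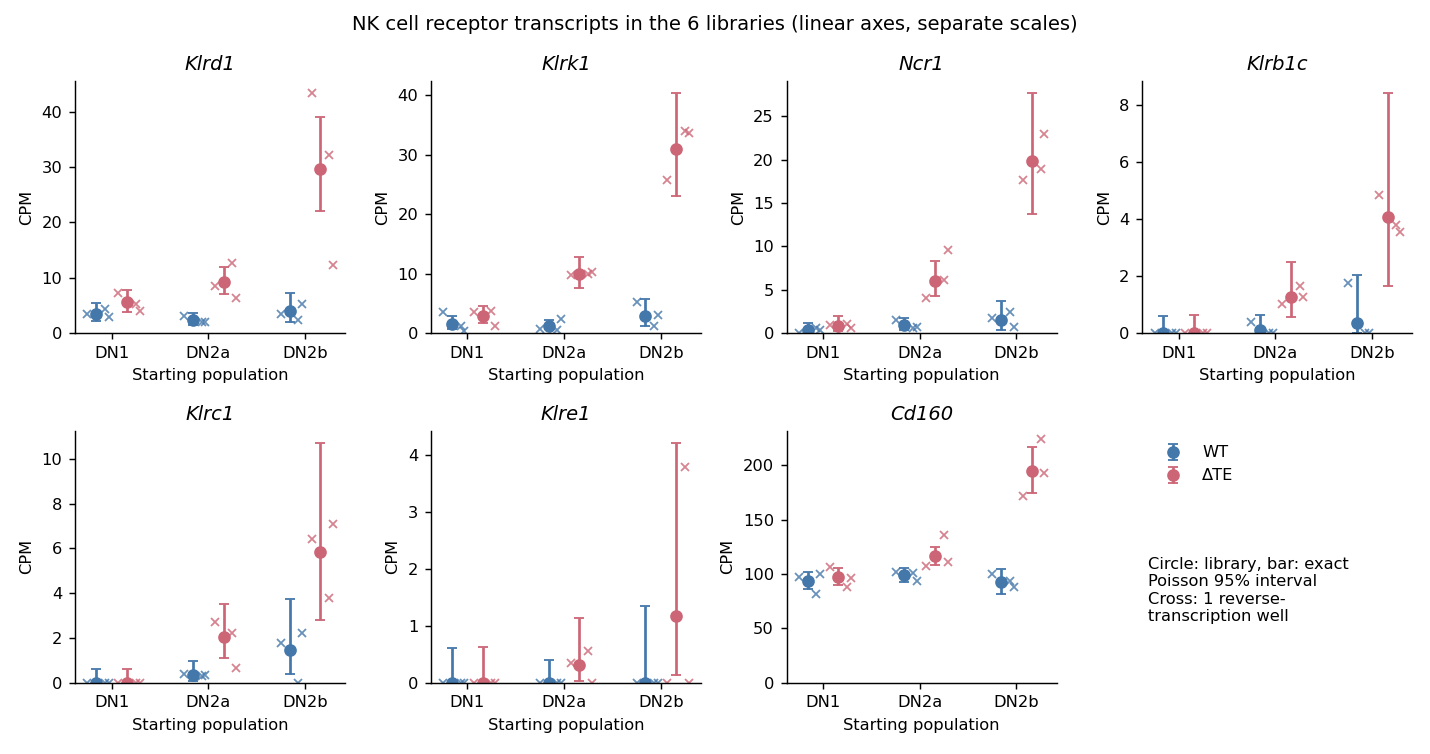
Level of each receptor (CPM, linear axis, 1 scale per gene) by starting population, with WT in blue and ΔTE in red. Circles are libraries with exact Poisson 95% intervals and crosses are the 3 wells of each library. For Klrk1 from DN2b, all ΔTE wells (25.7 to 34.0 CPM) sit above all WT wells (1.22 to 5.29 CPM), whereas the Cd160 wells of the DN1 start overlap.

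Of the inhibitory pair, Klrd1 had 21, 21 and 11 UMIs in WT from the DN1, DN2a and DN2b starts, or 3.51, 2.32 and 4.03 CPM. In ΔTE it had 33, 58 and 51 UMIs, or 5.60, 9.18 and 29.7 CPM. WT thus stayed within a narrow range, whereas ΔTE was highest from DN2b. On the log2 scale, ΔTE over WT was 0.68 (−0.16 to 1.54) from DN1, 1.98 (1.24 to 2.78) from DN2a and 2.88 (1.92 to 3.97) from DN2b. The ΔTE wells of the DN2b start spread widely for Klrd1, from 12.4 to 43.4 CPM, and all lay above the WT wells (2.43 to 5.22 CPM). With at most 20% mitochondrial UMIs, which left 948 ΔTE cells of the DN2b start, its DN2b ratio was 1.04 (−0.86 to 2.94).

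Klrc1, the partner of Klrd1, was at 0 UMIs in both DN1 libraries. It had 3 and 4 UMIs in WT and 13 and 10 in ΔTE from the DN2a and DN2b starts. The log2 ratios were 2.63 (0.77 to 5.08) and 1.99 (0.20 to 4.12), with wide intervals that both exclude 0. Klrc2 and Klrc3, near-identical neighbors with which Klrc1 could share reads, had 0 to 6 and 0 to 1 UMIs per library, and how the authors assigned shared reads is not given in the sources used here, so the Klrc1 count is uncertain.

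Among the activating receptors, Klrk1 had 9, 11 and 8 UMIs in WT and 17, 63 and 53 in ΔTE from the DN1, DN2a and DN2b starts. Its level was 1.5, 1.22 and 2.93 CPM in WT and 2.88, 9.97 and 30.9 CPM in ΔTE. From DN2a the ΔTE wells were close together (9.84 to 10.2 CPM), above the WT wells (0.585 to 2.33 CPM). The log2 ratio was 3.04 (2.10 to 4.11) from DN2a and 3.40 (2.32 to 4.68) from DN2b. From DN1 it was 0.94 (−0.31 to 2.29), and it moved between 0.34 and 2.04 as single wells were left out.

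Ncr1 had 2, 8 and 4 UMIs in WT and 5, 38 and 34 in ΔTE, in the same order of starts. Its level was 0.885 and 6.02 CPM in WT and ΔTE from DN2a, and 1.47 and 19.8 CPM from DN2b. The log2 ratio was 2.77 (1.64 to 4.08) from DN2a and 3.76 (2.27 to 5.71) from DN2b. With 7 UMIs in all from DN1, its ratio there was 1.35 (−1.27 to 4.74), so that no difference was detectable at this depth.

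Klrb1c was at 0 UMIs in both DN1 libraries, which allows up to 0.501 CPM in WT and 0.509 CPM in ΔTE. It had 1 UMI in each WT library of the DN2 starts and 8 and 7 in ΔTE, with log2 ratios of 3.52 (0.62 to 8.99) and 3.48 (0.52 to 8.97). Gm44511 overlaps Klrb1c on the same strand and had 0 to 7 UMIs per library. Klre1, another lectin-like receptor of the NK gene complex, had 2 UMIs in each ΔTE library of the DN2 starts and 0 in the other 4 libraries, too few for a ratio. Both receptors were thus seen from the DN2 starts only, at counts near the limit of these libraries.

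**Figure D2:**
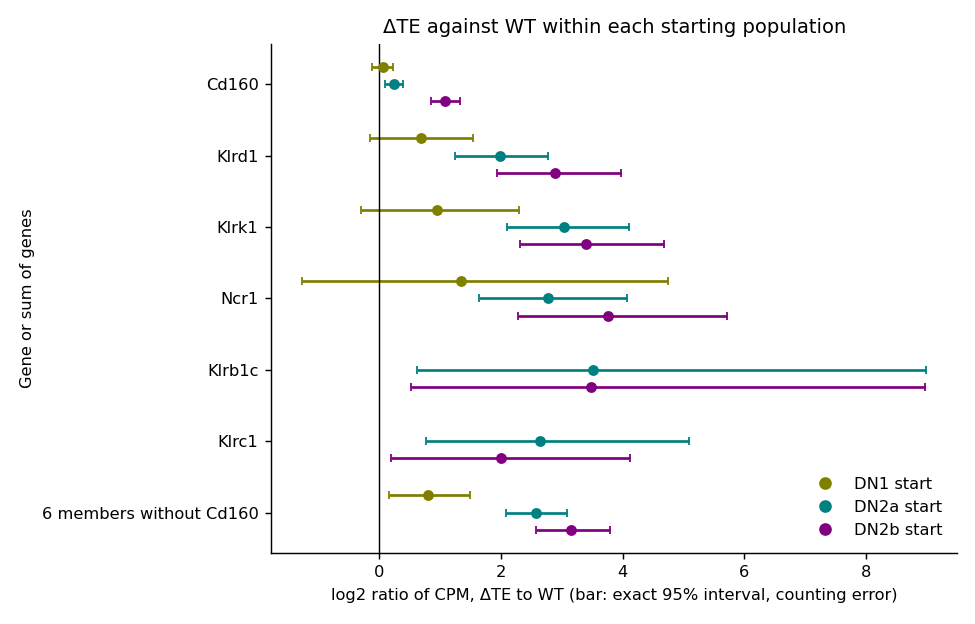
Log2 ratio of CPM, ΔTE to WT (x axis), for each receptor and for the 6 receptors other than Cd160 (y axis), by starting population. Points are ratios and bars exact 95% intervals for counting error. Cd160 sits near 0 from DN1 (0.05) and DN2a (0.24), whereas Klrk1 and Ncr1 lie above 2 from both DN2 starts. Pairs without a ratio are not drawn.

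Within ΔTE, the 6 receptors were higher the later the start. They were 3.09-fold higher (2.27 to 4.26) from DN2a than from DN1, and 3.18-fold higher (2.55 to 3.95) from DN2b than from DN2a. Within WT, they were 0.911-fold (0.565 to 1.48) from DN2a compared with DN1 and 2.11-fold higher (1.26 to 3.46) from DN2b than from DN2a. Ncr1 was at 0.848, 6.02 and 19.8 CPM in ΔTE. For Ncr1 in WT, the neighboring starts did not differ beyond their intervals, with log2 ratios of 1.41 (−0.92 to 4.68) and 0.73 (−1.45 to 2.63).

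Cd160 behaved differently from the other receptors. In WT it was at 94.0, 98.9 and 92.3 CPM from the DN1, DN2a and DN2b starts, and no pair of these starts differed beyond the intervals. In ΔTE it was at 97.6, 117 and 195 CPM. The log2 difference between ΔTE and WT was 0.05 (−0.12 to 0.22) from DN1, 0.24 (0.09 to 0.38) from DN2a and 1.08 (0.84 to 1.32) from DN2b. From DN2b the ΔTE wells (172 to 225 CPM) were well above the WT wells (88.0 to 101 CPM). The small DN2a difference was not kept under every setting. With no mitochondrial limit it was 0.04 (−0.09 to 0.18), and without the second ΔTE well 0.14 (−0.02 to 0.30). Pdzk1 overlaps Cd160 on the opposite strand and had 6 to 26 UMIs per library, against 252 to 894 for Cd160, and whether counting used strand is not given in the sources used here.

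The share of cells with a UMI followed the levels. After each cell was thinned to 300 UMIs, 0.142% of WT and 0.761% of ΔTE cells of the DN2a start had a UMI on 1 of the 6 receptors, and 0.272% and 2.28% of the DN2b start. The unthinned shares were 0.190% and 1.19% from DN2a and 0.443% and 3.68% from DN2b. For Cd160 the thinned shares were 2.72% in WT and 5.27% in ΔTE from DN2b, and the unthinned 4.43% and 8.23%.

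OP9-DL1 stromal cells, which should lack these receptors, give the background. Stromal-marker cells had at least 2 UMIs on stromal markers (collagens, Sparc, Fn1 and the like), more than on any other marker list below. They held 0 UMIs of the 6 receptors in 2355 WT cells and 8 UMIs in 980 ΔTE cells, or 12.1 CPM. This background differed between the genotypes, and in ΔTE it was no lower than the 9.33 CPM of the whole DN1 library. By this measure the ΔTE DN1 value of the 6 receptors cannot be told from background, and the DN1 ratio carries that limit. By start, the ΔTE background was 16.8, 5.93 and 81.0 CPM from DN1, DN2a and DN2b, on 2, 3 and 3 UMIs. The DN2b value, from 59 cells, stood near the 91.5 CPM of the whole ΔTE DN2b library, with too few UMIs to place it well. WT had 0 such UMIs from each start. In stromal-marker cells Cd160 was at 27.9 CPM (WT) and 27.2 CPM (ΔTE). A Cd160 UMI was found in 1.74% of these cells (median 541 UMIs), below the 4.10% to 8.23% of all cells of a library (median 386 to 485 UMIs). Without any cell that had at least 2 stromal marker UMIs, a wider set, the log2 ratio of the 6 receptors was 2.45 from DN2a and 3.05 from DN2b. Stromal markers, all 9 of 9 with UMIs in each library, summed to 2206 and 1382 CPM in WT and ΔTE from DN2a and to 779 and 381 CPM from DN2b.

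In these bulk sums, more receptor-bearing cells and more RNA per cell cannot be told apart, so the receptors were next read in cells grouped by marker lists that leave out the receptors. A cell was put in the class on whose list it had at least 2 UMIs, more than on any other list. Cells with NK or ILC1 markers made up 11.9%, 14.1% and 12.2% of the WT libraries from DN1, DN2a and DN2b, and 17.4%, 24.2% and 19.7% of the ΔTE libraries. This class rested mostly on granzymes. Gzma gave 60.2% of the list's UMIs, Nkg7 22.2% and Gzmb 15.8%, whereas Tbx21 and Eomes, the defining factors of NK cells, had 38 and 13 UMIs in all libraries, and Prf1 and Ifng 16 and 1. It is therefore called by its list and not by a cell type. The list's summed level was 1079 to 1465 CPM in WT and 1363 to 1938 CPM in ΔTE, but its members did not move together. Gzma was at 566, 830 and 594 CPM in WT and 877, 1345 and 1061 CPM in ΔTE from DN1, DN2a and DN2b, whereas Nkg7 was lower in ΔTE from each start, at 292, 417 and 362 CPM against 234, 299 and 322 CPM. Ifng was at 0 in 5 of 6 libraries, Eomes in both DN1 libraries, and Il2rb and Xcl1 in the WT DN1 library.

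Over all starts, the 6 receptors were higher in ΔTE both in the NK or ILC1 marker class and in cells outside every class. In the NK or ILC1 marker class they stood at 8.15 CPM (WT) and 40.9 CPM (ΔTE), 5.02-fold higher (3.22 to 8.18). By start this was 1.43-fold (0.383 to 6.49) from DN1, with 4 and 8 UMIs, 7.06-fold (3.53 to 16.0) from DN2a and 6.16-fold (3.12 to 13.5) from DN2b. In cells that no list claimed, they were at 5.81 and 24.5 CPM, 4.22-fold higher (3.18 to 5.65), and these cells held 55.0% of the 6 receptors' UMIs. Unclaimed cells were 24970 of 35382 in WT and 16942 of 25289 in ΔTE. The class of ILC2 markers (Rora, Il17rb, Icos and others) had 2 UMIs in 173 WT cells and 11 UMIs in 187 ΔTE cells, or 19.9 and 99.0 CPM. From DN2b, Rora, Il17rb and Icos had 357, 208 and 116 of the list's 689 UMIs in WT. In ΔTE they had 316, 183 and 203 of 716. Il1rl1 had 1 and 0 UMIs there and Il5 0 and 1, so this class too is called by its list. Cells with T-cell markers had 5 and 6 UMIs, or 5.98 and 16.8 CPM, a log2 ratio of 1.49 (−0.48 to 3.54).

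Of the classes, all starts together, that of ILC2 markers had the highest Cd160 level, 219 CPM in WT (137 to 331) and 351 CPM in ΔTE (250 to 480). In the class of γδ T-cell markers it was at 56.8 CPM (4 UMIs) and 221 CPM (22 UMIs), 3.90-fold higher in ΔTE (1.32 to 15.6). In the NK or ILC1 class it was at 110 and 140 CPM and in cells with progenitor markers at 88.8 and 92.5 CPM. In cells with T-cell markers it was at 86.1 and 67.3 CPM, a log2 ratio of −0.36 (−1.09 to 0.33). Cd160 UMIs thus lay in each of these classes. Cells that no list claimed held 66.7% to 70.7% of its UMIs in each WT library and 55.3% to 67.0% in each ΔTE library. Such cells also made up most of each library. From DN1, DN2a and DN2b they were 8106 of 10925, 13416 of 19489 and 3448 of 4968 cells in WT. In ΔTE they were 7415 of 10294, 7321 of 11594 and 2206 of 3401 cells, so little is read from these UMI shares.

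**Figure D3:**
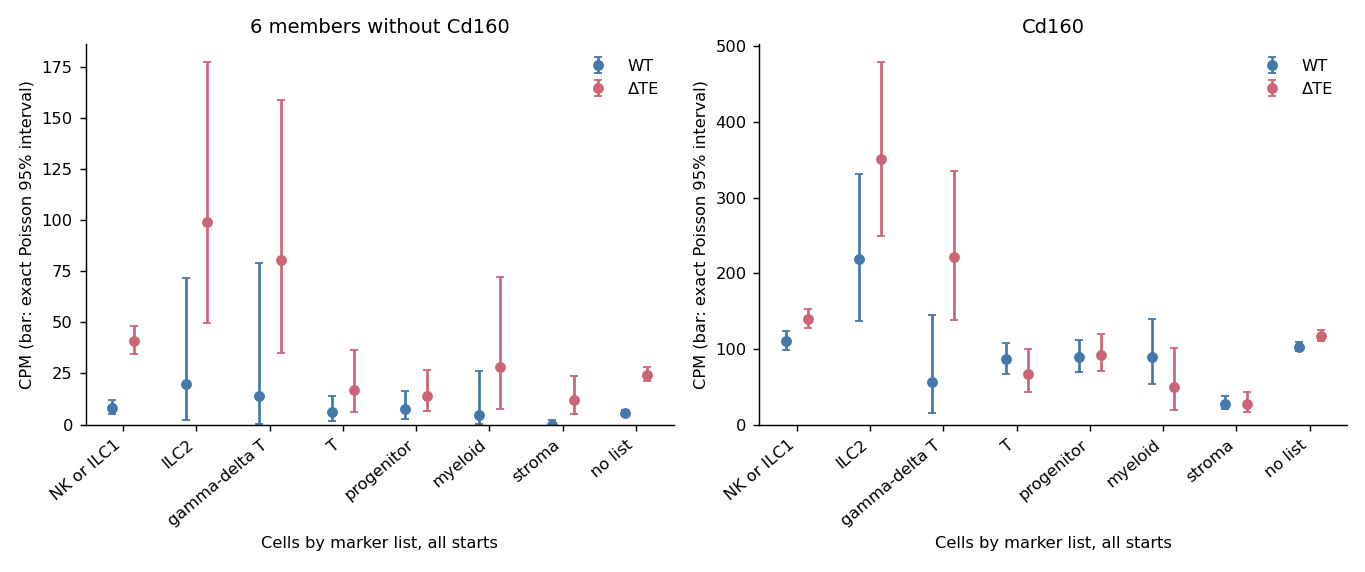
Levels (CPM, y axis) of the 6 receptors other than Cd160 (left) and of Cd160 (right) in cells grouped by marker list (x axis), all starts together, WT in blue and ΔTE in red. Points are summed libraries with exact Poisson 95% intervals. In the NK or ILC1 class the 6 receptors sit at 8.15 CPM (WT) and 40.9 CPM (ΔTE), and in stromal-marker cells at 0 and 12.1 CPM.

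Most cells were too shallow to show receptors together. Of the 404 cells with a UMI on 1 or more of the 6, 325 had 1 UMI in all and could show no second receptor, and 42 (10.4%, 7.60 to 13.8) had UMIs on at least 2 of the receptors. Klrd1 and Klrk1 met in 16 cells, Klrd1 and Ncr1 in 9, and Klrk1 and Ncr1 in 7. Klrd1 and its partner Klrc1 met in 3 cells. A Cd160 UMI was found in 80 of the 404 cells (19.8%, 16.0 to 24.0), against 4.78% of all other cells, at median depths of 476.5 and 434 UMIs. By library the share ranged from 11.8% to 25.6% in 5 of 6 libraries, against 4.08% to 7.57% of the other cells. In WT DN1 it was 1 of 31 cells (3.23%) against 4.68%. Of the 2962 Cd160 cells, 2882 had no UMI on the other receptors.

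The 404 cells were then compared with all other cells, as a description, since they were chosen by their counts and cells of 1 library are not replicates. Genes were ranked if they had at least 30 UMIs in the receptor cells, which a rare gene reaches only if it is high there. The ranks and ratios are therefore no support for a link. Over all cells with any of the 7 receptors and all libraries together, 8150 genes were ranked. The 10 of the highest ratio were Xcl1, Il2rb, Ikzf3, Togaram2, Gimap4, Tnni1, Olfm3, Icos, Ms4a4b and Tnfrsf9. Xcl1, a chemokine of NK cells, was 14.0-fold higher in them, and Il2rb, the shared receptor chain for IL-2 and IL-15, 11.7-fold. In cells of the 6 receptors without Cd160, a set looked at after the values were seen, Xcl1 was 81.1-fold higher (52.9 to 123) and Il2rb 58.7-fold higher (43.3 to 78.7) over all libraries together, which differ in both their levels and their share of receptor cells. Within ΔTE DN2a, Xcl1 was 50.5-fold higher (24.8 to 99.6) and Il2rb 54.8-fold (32.8 to 90.3). Within ΔTE DN2b they were 13.4-fold (6.92 to 25.0) and 9.84-fold (6.20 to 15.3) higher. Over all libraries together, 1586 genes had at least 30 UMIs in cells of the 6 receptors. The others at the top of these were Tnni1, H2-Eb1, Ms4a4b, Tnfrsf9, Il18r1, Olfm3, H2-Ab1 and H2-Aa, at 16.6-fold to 23.7-fold.

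In the ΔTE libraries of the DN2 starts, some genes were higher and others lower in cells of the 6 receptors than in the other cells of the same library. From the DN2a start, Tyrobp (DAP12, an adaptor of activating receptors) was 6.0-fold higher (4.35 to 8.10), Id2 (an antagonist of E proteins that ILCs and NK cells need) 8.92-fold (6.24 to 12.4) and Gzmb 8.27-fold (6.92 to 9.80). Zbtb16 (PLZF, a factor of ILC precursors) was 2.49-fold higher (1.99 to 3.08), and Bcl11b was at 0.261-fold (0.0845 to 0.609). From the DN2b start, Tyrobp was 8.58-fold higher (5.54 to 13.0), Id2 3.96-fold (2.87 to 5.38), Zbtb16 2.91-fold (2.27 to 3.68) and Bcl11b at 0.206-fold (0.0886 to 0.407). Gzma, the granzyme that dominates the NK or ILC1 list, was not among the genes higher in these cells, at 0.780-fold (0.616 to 0.975) from DN2a and 0.436-fold (0.299 to 0.615) from DN2b. Thy1 was at 0.473-fold from DN2b (0.313 to 0.686) and 0.732-fold from DN2a (0.482 to 1.07). Cd3g, a T-cell receptor chain, was at 1.93-fold (1.16 to 3.04) from DN2a and 0.611-fold (0.366 to 0.961) from DN2b. In the ΔTE library of the DN1 start (51 cells), Id2 was 12.7-fold higher (6.98 to 21.3) and Tyrobp 3.88-fold (2.39 to 5.96). There Zbtb16 was at 0.526-fold (0.193 to 1.15), Bcl11b at 0.768-fold (0.0928 to 2.79) and Fcer1g at 0.937-fold (0.343 to 2.05), with intervals that include 1. The genes of this comparison were chosen after their values were seen, and no theme is drawn from them.

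**Figure D4:**
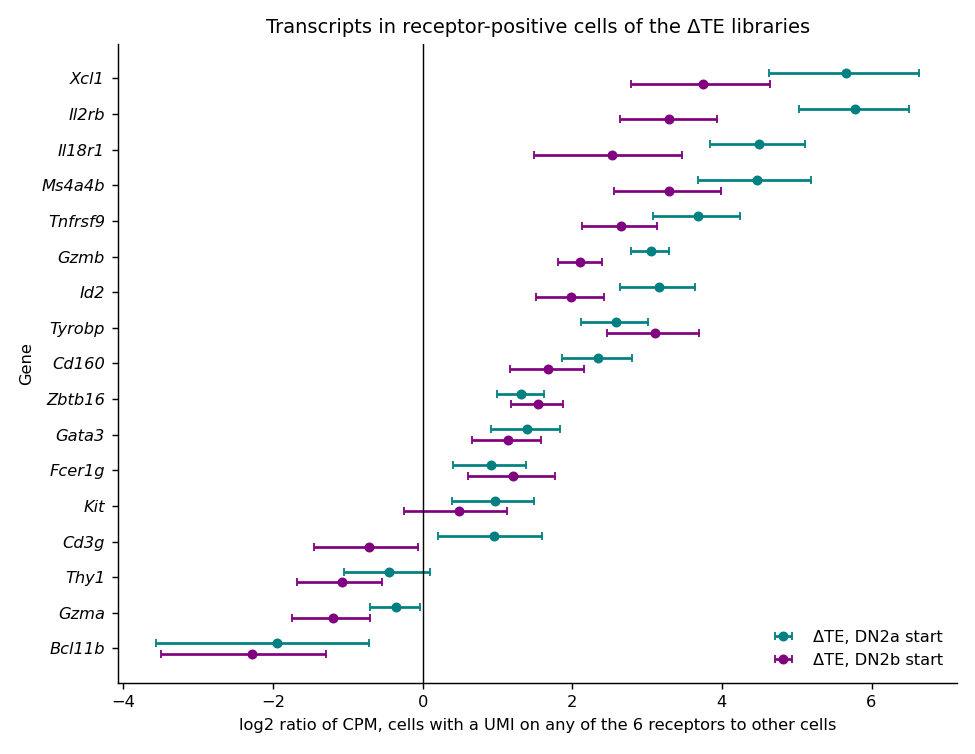
Log2 ratio of CPM in cells with a UMI on any of the 6 receptors to all other cells (x axis) for 17 genes (y axis), in the ΔTE libraries of the DN2a (138 cells) and DN2b (125 cells) starts. Points are ratios and bars exact 95% intervals for counting error. Il2rb, Xcl1 and Tyrobp lie far above 0 and Bcl11b below it in both libraries.

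Cells with Il2rb transcripts were looked at apart. An Il2rb UMI was found in 195 cells, 163 in ΔTE and 32 in WT. In these cells the 6 receptors were at 643 CPM (503 to 810), against 13.5 CPM in all other cells, over all libraries together. Within ΔTE it was 959 against 22.9 CPM from DN2a and 584 against 77.9 CPM from DN2b, and WT had 4 UMIs in 32 such cells. Il2rb cells held 14.5% of the 6 receptors' UMIs. In all other cells the receptors were still 4.82-fold higher in ΔTE (3.41 to 6.94) from DN2a and 8.48-fold (5.49 to 13.6) from DN2b, and 1.65-fold (1.04 to 2.65) from DN1.

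From the DN1 start, cells of the 6 receptors often held transcripts of MHC class II genes, which antigen-presenting cells carry. A UMI on H2-Aa, H2-Ab1 or H2-Eb1 was in 32 of 82 such cells (39.0%, 28.4 to 50.4), against 1.56% of cells with no receptor UMI. By receptor, this was 14 of 26 Klrk1 cells and 20 of 52 Klrd1 cells. It held in both genotypes, with 14 of 31 cells in WT and 18 of 51 in ΔTE. From DN2a it was 16 of 175 cells (9.14%) against 0.400%, and from DN2b 0 of 147 cells (up to 2.48%) against 0.168%. Cells with Cd160 had few such transcripts, 12 of 2962 (0.405%). Without all cells that held an MHC class II UMI, the log2 ratio of the 6 receptors was 1.08 (0.20 to 2.0) from DN1, 2.84 (2.31 to 3.42) from DN2a and 3.16 (2.57 to 3.79) from DN2b.

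**Figure D5:**
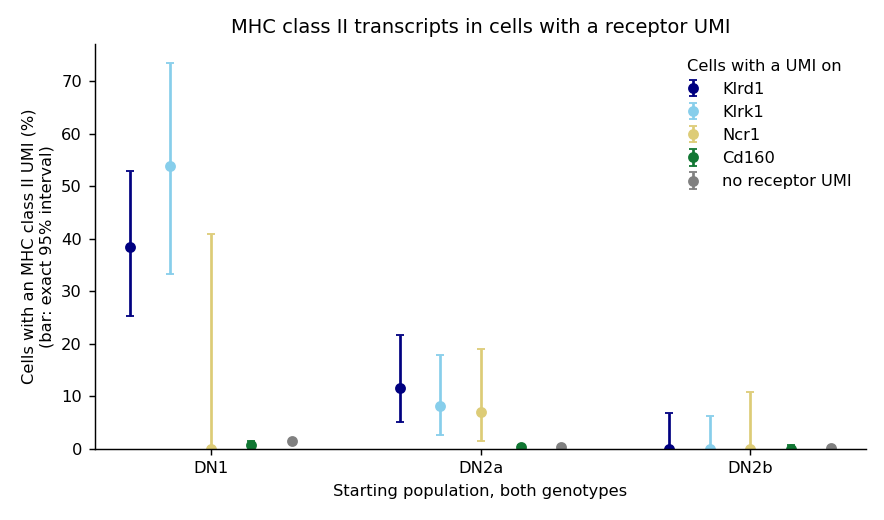
Share of cells with an MHC class II UMI (percent, y axis) among cells with a UMI on Klrd1, Klrk1, Ncr1 or Cd160 and among cells with no receptor UMI, by starting population (x axis), both genotypes together. Bars are exact 95% intervals. Klrk1 and Klrd1 cells of the DN1 start stand highest, at 53.8% and 38.5%, and no Klrd1, Klrk1, Ncr1 or Cd160 cell of the DN2b start had such a UMI.

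Across the 18 wells, the genes most like the summed 7 receptors in log2(CPM + 1) were Id2 (Pearson r = 0.92), Gzmb (0.92), Ccr2 (0.92), Il2rb (0.91) and Gm5127 (0.90), of 9810 genes with at least 200 UMIs. For the 6 receptors without Cd160 they were Tnni1 (0.95), Ccr2 (0.94), Il2rb (0.93), Id2 (0.92) and Ctsw (0.90). Wells of 1 library share their culture, so the 18 points hold 6 conditions and the values are a description.

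Other genes of the receptors' pathway were read from lists. Of 31 other NK receptors, 29 were in the files and most had too few UMIs. From the DN2a start, 3 of 7 with at least 20 UMIs were at least 2-fold higher in ΔTE and 0 lower (1.10% and 4.00% of all genes), namely Klri2 (7 and 19 UMIs in WT and ΔTE), Fcgr3 (34 and 48) and Slamf7 (8 and 15). Klri2 and Slamf7 reached 20 UMIs only together with ΔTE, where they were high. From DN2b it was 1 of 4, Cd244a (131 and 181 UMIs), and 0 lower (1.74% and 3.64% of all genes). From DN1, 0 of 7 were higher, and Klra2 (20 and 6 UMIs) and Slamf7 (25 and 7) were at least 2-fold lower, where 0.830% of all genes were higher and 1.70% lower. Klra2, and Nfil3 and Hcst further on, are named outside the fixed rule. The medians of the list were 0.04, 0.59 and 0.21 on the log2 scale from DN1, DN2a and DN2b.

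Of the adaptors and signalling genes, 0 of 10 were at least 2-fold higher or lower from DN1, 2 of 11 higher from DN2a and 2 of 10 from DN2b, with 0 lower. The shares of all genes that were higher are 0.830%, 1.10% and 1.74% in this order, and of those lower 1.70%, 4.00% and 3.64%. Fcer1g, the adaptor of Ncr1, was at 113 and 267 CPM in WT and ΔTE from DN2a, a log2 ratio of 1.24 (1.13 to 1.36), and 2.15 (1.84 to 2.47) from DN2b. Tyrobp was at 11.4 and 69.9 CPM from DN2b, a log2 ratio of 2.62 (2.04 to 3.24). Hcst (DAP10), the other adaptor of Klrk1, differed less, by 0.58 (0.04 to 1.11) from DN2b and −0.21 (−0.54 to 0.11) from DN2a. Sh2d1b1, an adaptor of the SLAM receptors, had 8 and 34 UMIs from DN2a. It reached 20 UMIs only together with ΔTE, where it was high. Of 12 ligand genes of these receptors, 8 had enough UMIs from each start and 0 passed 2-fold in either direction.

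Among 16 regulators of NK cells and cytokine receptors, 0 of 12 passed 2-fold from DN1 (0.830% of all genes higher and 1.70% lower). From DN2a, 2 of 13 were higher (Zbtb16, log2 ratio 1.02, and Il2rb, 2.27) and 0 lower (1.10% and 4.00% of all genes). From DN2b, 5 of 13 were higher, namely Il2rb (3.34), Il18r1 (1.74), Id2 (1.65), Nfil3 (1.14) and Zbtb16 (1.07), and 1 was lower, Zeb2 (−1.15), where 1.74% of all genes were higher and 3.64% lower. Among 8 granule and effector genes, 1 of 4 was at least 2-fold higher from DN1 (0.830% of all genes). From DN2a this was 1 of 5 (1.10%), and from DN2b 2 of 5 (1.74%), where 1 was lower (3.64%). Xcl1 from both DN2 starts reached 20 UMIs only through ΔTE, where it was high. So did Ccl5 from DN1 (17 and 38 UMIs in WT and ΔTE). From DN2b this also held for Il2rb (16 and 102) and Nfil3 (18 and 25). These calls are therefore no support for a difference. Xcl1 had 4 and 40 UMIs in WT and ΔTE from DN2a and 8 and 47 from DN2b, log2 ratios of 3.84 (2.37 to 5.78) and 3.22 (2.13 to 4.52). Gzmb differed by 1.16 (0.99 to 1.32) from DN2b. Nkg7, a granule protein gene, was lower in ΔTE from each start, with log2 ratios of −0.32 (−0.42 to −0.22), −0.48 (−0.56 to −0.40) and −0.17 (−0.32 to −0.02). Ccl5 was higher from DN1, by 1.18 (0.32 to 2.10), and had 22 and 6 UMIs from DN2b, a log2 ratio of −1.20 (−2.80 to 0.14).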

How the data were processed

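The authors deposited, for each of 6 sci-RNA-seq3 libraries, a count of UMIs per gene and barcode, without normalization or a filter on cells. The submitters' processing notes name the genome build mm9. The aligner, the annotation and the handling of strand are not given in the sources used here. Per the labels the libraries hold nuclear RNA. Groups were taken from the labels.

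Barcodes counted as cells if they had 200 or more genes, up to 2000 UMIs and a mitochondrial share of up to 30%, the limits that the methods of the study state. Doublets were not called and are limited only by the upper bound on UMIs. CPM is the summed count of a gene in a group of cells, scaled to the UMIs of those cells on genes found in at least 15 cells (13599 genes). Klre1, below that limit, was kept as a member. Ratios of ΔTE to WT have exact conditional binomial 95% intervals, CPM exact Poisson intervals and shares exact Clopper-Pearson intervals (scipy 1.17.1). A gene was called when its CPM differed at least 2-fold and both libraries together had at least 20 UMIs. A value of 0 was given a limit of 3 UMIs per library. With 1 library per condition there was no test between conditions, and the study's test over cells was not repeated. Shares were thinned to 300 UMIs per cell, leaving out shallower cells (random seed 0). The calculation of ratios was tested on simulated data.

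The 7 receptors and the lists were chosen with earlier results of these data known. Named were the receptors, the 5 genes most like their sum over wells, the 10 genes highest in cells with a receptor UMI, and listed genes past 2-fold, up to 4 per list, beside those named as chosen later. The ranking in cells with a receptor UMI took only genes with at least 30 UMIs in those cells. Alternatives were 10 settings of filters, scaling and cells, each of 18 wells left out, and 2 settings added after seeing the data (without MHC class II or Il2rb cells). TMM factors came from edgeR 4.0.16 in R 4.3.3, tables from pandas 2.3.3 and numpy 2.4.6 under Python 3.11.15, and plots from matplotlib 3.10.9.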

Additional observations from a re-analysis of the deposited data

Results flagged for a closer look

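Barcodes that the filters left out were not used above, and in some of them the receptors were also higher in ΔTE than in WT, the control. Among barcodes over 30% mitochondrial UMIs, the log2 ratio of the 6 receptors other than Cd160 was 3.63 (2.54 to 4.98) from the DN2b start, from 7 UMIs in WT and 107 in ΔTE. In the same barcodes, that of Cd160 was 1.18 (0.17 to 2.41) from DN2a and 0.95 (0.61 to 1.30) from DN2b.

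Among barcodes with under 200 genes, the 6 receptors had log2 ratios of 2.13 (1.55 to 2.73) from DN2a and 2.30 (1.67 to 2.99) from DN2b, and Cd160 0.83 (0.51 to 1.15) from DN2b. Among barcodes over 2000 UMIs, Cd160 had a ratio of 1.43 (0.40 to 2.53) from DN2b, from 13 UMIs in WT and 24 in ΔTE. Other left-out barcodes went the other way. Under 200 genes from DN1, WT had a Cd160 level of 79.8 CPM (69.4 to 91.4) and ΔTE one of 57.3 CPM (47.9 to 68.0), with the 6 receptors at 14.4 and 9.62 CPM. Over 2000 UMIs from DN2a, WT had a Cd160 level of 56.2 CPM (36.4 to 83.0), above the 24.7 CPM (15.5 to 37.4) of ΔTE. Intervals cover counting error only, and why these barcodes differ was not tested.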

How the results depend on the processing

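No paired analysis was possible because each condition is 1 library and the labels give no replicate numbers. Over 10 planned settings and 2 added ones, the 6 receptors without Cd160 stayed higher in ΔTE from every start. Their log2 ratio was 1.58 from DN1 (0.80 as reported) and 2.32 from DN2b (3.16) with at most 20% mitochondrial UMIs. Under that limit 1 receptor in place of 4 was counted as at least 2-fold higher from DN2b, where only receptors that keep 20 UMIs are counted. Klrd1, Klrk1 and Ncr1 from DN2b had log2 ratios of at least 1.04, 2.92 and 3.04 over all 12 settings. From DN1, 1 receptor in place of 0 was 2-fold higher with no mitochondrial limit and as UMIs per 1000 cells. The ratio of all 7 receptors from DN2a, 0.49 as reported, was 0.26 with no mitochondrial limit, 0.75 with at most 20%, 0.63 with TMM scaling, and 0.72 per 1000 cells, and from DN2b 1.25 (1.48) with no mitochondrial limit. With single wells left out, the 6 receptors' ratios were 0.51 to 1.03 from DN1, 2.34 to 2.72 from DN2a and 2.92 to 3.31 from DN2b, and the count of receptors was 0 to 1 from DN1, where WT well 1 or ΔTE well 3 left out gave 1. For the 20% limit, fewer cells and UMIs are its own construction, and the cause of the other shifts was not tested. Receptors with under 20 UMIs have intervals too wide to rank them.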

Other observations

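The ratios below pool all 6 libraries, which differ in their levels and in their share of Cd160 cells. In cells with a Cd160 UMI, Xcl1 was 6.21-fold higher than in other cells (3.92 to 9.62), Togaram2 4.72-fold (3.13 to 6.95), Il2rb 4.62-fold (3.32 to 6.34), Ikzf3 4.46-fold (2.89 to 6.71) and Icos 3.53-fold (2.79 to 4.42). Within single libraries, Xcl1 was higher in Cd160 cells in 3 of 6, Il2rb in 4, Togaram2 and Icos in 5 and Ikzf3 in 6. Ranked genes had at least 30 UMIs in Cd160 cells. Cd226, also named after its value was seen, an activating adhesion receptor of NK and T cells, was 2.25-fold higher (1.59 to 3.10). Bcl11b in Cd160 cells was at 0.942-fold (0.871 to 1.02). Stromal markers were at 0.284-fold (0.262 to 0.306) in Cd160 cells and 0.225-fold (0.171 to 0.290) in cells of the other 6 receptors. In the latter, the ILC2 list was 4.08-fold higher (3.40 to 4.86), the γδ T-cell list 3.72-fold (2.96 to 4.6) and the T-cell list at 1.01-fold (0.814 to 1.24). The γδ T-cell list was read from 3 of its 7 genes, so its value stands for these genes and not for a cell type.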
